A study of Canis lupus familiaris with 20 samples.

Results

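Canine macrophages (MQ) and canine mammary cancer cells were compared as each grew alone. The study grew 5 cancer lines, made up of the adenocarcinoma lines CMT-W1 and CMT-W2, the simple carcinoma line CMT-U27, the anaplastic line P114 and the spindle-cell line CMT-U309, with or without macrophages for 72 hrs and hybridised each co-culture against its own single culture on 20 Agilent arrays with 2 channels each. The single-culture channel of every array was taken by its source name, which gave 20 of the 40 channels, 10 of MQ and 10 of cancer lines. Each comparison was run as a dye-swap, so the 2 arrays of a swap were averaged to 1 value, leaving 5 MQ values and 5 cancer line values. An MQ value is named here for the line whose co-cultured macrophages were on the other channel of its arrays ("the P114 pair"), although that culture was grown without cancer cells.

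The MQ were CD64-positive monocytes sorted from the blood of healthy dogs and cultured for 72 hrs, so they are a model of partly differentiated macrophages. The number of dogs behind the 5 MQ values, and whether these were separate cultures, are not given in the sources used here, and each cancer line entered as a single value. No genetic change or drug was applied to any culture, and all cells were kept in RPMI-1640 with fetal bovine serum. Both kinds of single culture were washed and scraped, without the sort applied to co-cultures.

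Macrophages are phagocytes of the myeloid lineage. They carry Fc receptors and scavenger receptors for uptake, Toll-like receptors for sensing microbes, and a large set of lysosomal proteases, and they present antigen on MHC class II. Mammary carcinoma cells are of epithelial origin, are joined by tight junctions and desmosomes, and divide in culture. In tumours, macrophages and cancer cells exchange chemokines, growth factors and proteases, so the level of such genes in each cell type alone sets the baseline from which a co-culture is read.

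Across the 23625 genes tested, the 5 MQ values were nearly alike. Their correlations with each other were 0.975 to 0.99, and arrays of different MQ pairs correlated at 0.94 to 0.99, about as high as the 2 arrays of an MQ dye-swap (0.954 to 0.993). The cancer lines spread far more widely, with correlations of 0.59 to 0.954 between lines, and MQ against a line reached 0.501 to 0.757. The median SD of a gene was 0.185 on the log2 scale over the MQ values and 1.03 over the cancer lines, and from the differences between dye-swapped arrays alone 0.12 and 0.259 were calculated. A p-value below therefore measures the spread between these samples, which for MQ may be mostly technical, and where the 5 MQ values are counted as 1 sample most calls are lost.

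**Figure D1:**
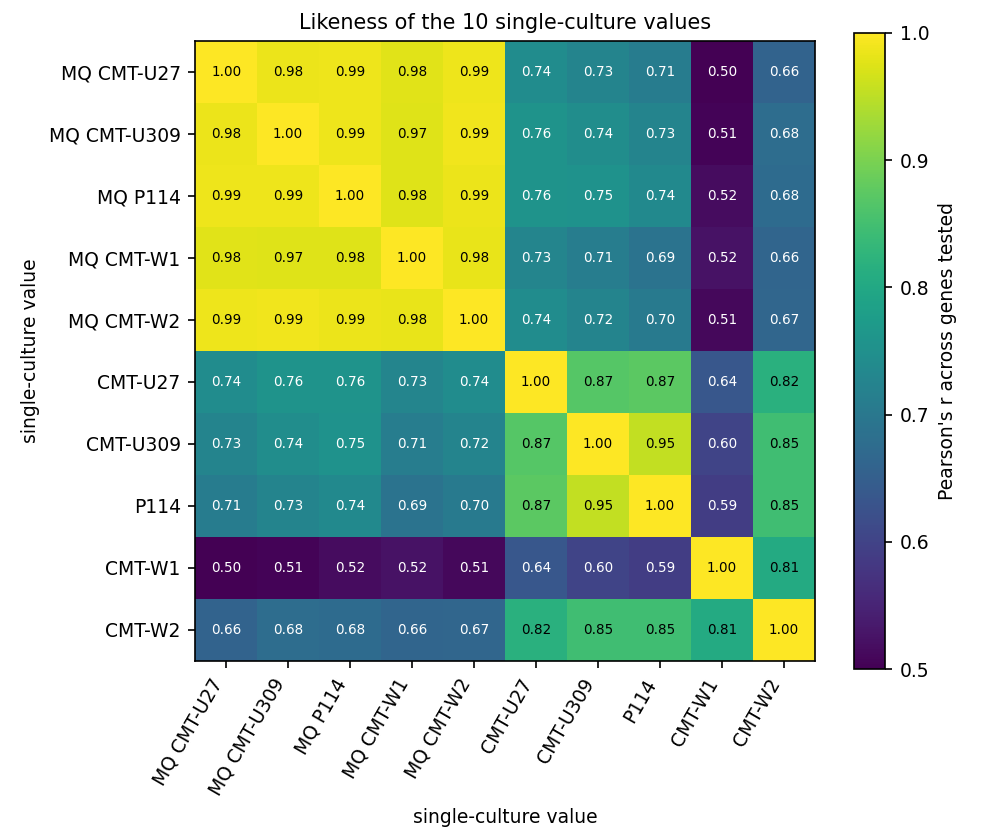
Pearson's r across 23625 genes between the 10 single-culture values, each the mean of a dye-swapped pair of arrays; MQ values carry the name of the line on the other channel. The MQ block lies at 0.975 or above, CMT-U309 and P114 reach 0.954, and CMT-W1 is the line least like MQ.

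The cancer lines were not 5 equally distinct cultures. CMT-U309 and P114, which are named for different tumours, differed by 4-fold or more in 591 genes (2.5% of genes tested), against 2621 to 10756 genes for the other pairs of lines. The CMT-U309 array with the single culture in Cy5 correlated with the P114 arrays at 0.979 and 0.969, above its correlation of 0.92 with its own dye-swapped array, on which 1136 spots were outliers. CMT-W1 stood furthest from the rest: its arrays had 55.7% and 40.9% of probes well above background, against 50.2% to 84.1% on the other cancer arrays and 56.3% to 71.0% on the MQ arrays, and 10123 genes separated it 4-fold or more from CMT-U27. Its closest neighbour was CMT-W2, at a correlation of 0.805.

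The markers that set the cell types apart were in place. CD163, the haemoglobin scavenger receptor of macrophages, read 16.95, 16.64, 16.99, 16.87 and 16.82 in the MQ values, given here and below on the log2 scale of normalized intensity, first for CMT-U27, then CMT-U309, then P114, and last CMT-W1 and CMT-W2. The lines themselves read 8.55, 6.44, 5.03, 4.5 and 4.17, and CD163 was well above background on 4 of their 10 arrays. All MQ values lay above all lines, by 11.11 ± 0.72 (log2, SE, adjusted p = 1.07e-06). FCGR1A encodes CD64, the antigen the monocytes were sorted on, so its level in MQ is no finding; it read 17.12, 17.10, 17.27, 17.35 and 17.17 in MQ and 10.19, 9.20, 7.58, 4.84 and 6.41 in the lines. TYROBP, an adaptor that passes on activating signals of myeloid receptors, read 17.56, 17.76, 17.84, 17.72 and 17.74 in MQ. In the lines it was well above background on all 10 arrays, at 14.12, 13.33, 10.62, 9.33 and 10.90, so here MQ and lines differed in degree (6.07 ± 0.79, adjusted p = 0.000156). FCER1G, the shared signalling chain of Fc receptors, read 13.11, 12.71, 12.61, 12.74 and 12.84 in MQ and 8.09, 7.56, 5.05, 7.25 and 7.55 in the lines (5.70 ± 0.51, adjusted p = 9.59e-06). CAV1, the main coat protein of caveolae, ran the other way. It read 12.90, 15.01, 15.27, 13.57 and 14.37 in the lines and 5.12, 8.52, 9.76, 4.43 and 4.99 in MQ. The difference was -7.66 ± 1.01 (MQ minus lines, adjusted p = 0.000172), and the groups did not overlap. CAV1 was not well above background on either MQ array of the CMT-U27 and CMT-W1 pairs. The size of the difference therefore rests partly on signals near background, and it ran from -9.10 to -5.05 over the settings tried. The MQ values of the CMT-U309 and P114 pairs were clearly above the other 3, on both arrays of each pair.

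**Figure D2:**
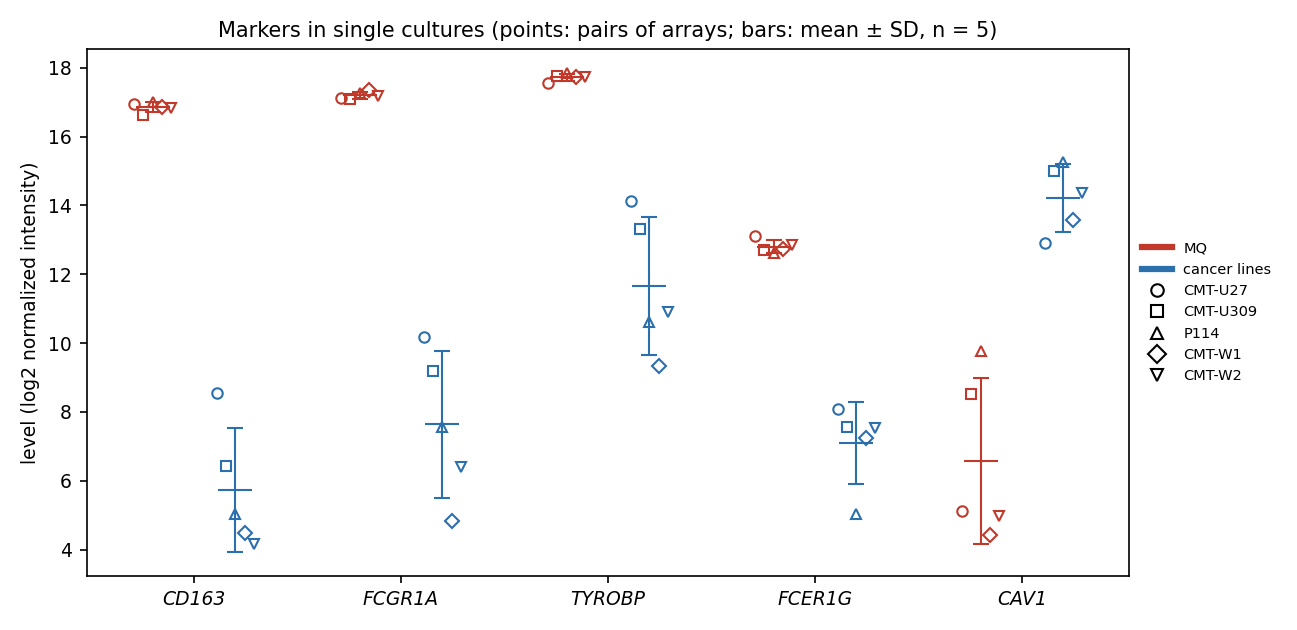
Level (log2 normalized intensity) of the 5 markers in each single culture: MQ in red, cancer lines in blue, symbols for the line or the line of the pair, bars for mean ± SD (n = 5). The 4 macrophage markers are tight and high in MQ and scattered in the lines, and CAV1 is high in every line and raised in the MQ values of the P114 and CMT-U309 pairs.

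Fitted over all genes with limma, 8003 of 23625 genes (33.9%) were called at an adjusted p under 0.05. Of these, 4440 (18.8% of genes tested) were higher in MQ and 3563 (15.1%) were higher in the cancer lines. A call together with a difference of at least 4-fold was made for 4396 genes (18.6%), 2565 higher in MQ and 1831 higher in the lines. Sizes depended on the background correction: with normexp and loess in place of the scanner's processed signal, 1576 genes were called at 4-fold or more. With that correction the SD of CAV1 over the MQ values was 0.80 rather than 2.41. The MQ values lay above all 5 lines for 18.7% of genes and below all of them for 12.5%. With the MQ values averaged to 1 sample 143 genes were called, all at 4-fold or more, 116 higher in MQ and 27 higher in the lines. With the day of scanning as a block 1746 were called. Of the 5 MQ pairs, 4 were scanned on another day than all cancer lines. The difference in that fit is therefore that of the MQ value of the CMT-U27 pair alone from the 5 lines. On the only slide that held both kinds of cells (MQ of the CMT-U27 pair and CMT-W1), 7701 of the 8003 called genes (96.2%) differed in the fitted direction; those values are also part of the fit. Names were available for 723 of the genes tested, of which 206 were called higher in MQ and 102 higher in the lines, and only these are described below by name. Counts of list members higher in MQ or in the lines stand against the 18.8% and 15.1% of all genes. List members are all named genes, so the 206 and 102 of 723 are the nearer base, a larger share for MQ. The median difference of the named genes was 0.3 (log2). For lists of a few genes a share near those is no result about the list.

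Macrophage identity genes were higher in MQ throughout. All 7 tested members of the identity list were called higher in MQ, 6 without overlap. Their median difference was 7.64, against 0.0977 over all genes and 0.3 over the named genes. C5AR1, the receptor for complement C5a, read 14.59, 14.51, 14.41, 14.19 and 14.40 in MQ and 6.24, 5.88, 5.66, 5.97 and 4.23 in the lines (8.83 ± 0.38, adjusted p = 5.72e-08). It was well above background on 4 of the 10 cancer line arrays, and its difference ran from 5.11 to 8.99 over the settings tried. Its spread between lines was small, and it was among the 6 of the 102 called and reported genes of the naming rule that stayed called with MQ as 1 sample (adjusted p 0.0216). In that fit the lines alone supply the spread, and the lone MQ value is assumed to vary as they do. Of those 102 genes, 51 stayed called with scan day as a block, where the difference rests on 1 MQ value. The other genes called with MQ as 1 sample were CD163, CD80, CCL13, CCR1 and CAV1. C5AR1 and CD163 were well above background on 4 of the 10 cancer line arrays, CCR1 on 3, CCL13 on 2 and CD80 on 1. For these genes the spread over the lines, which the fit with MQ as 1 sample uses, rests partly on signals near background. CD209, a C-type lectin of dendritic cells and macrophages, was higher in MQ by 7.64 ± 0.55. SLC11A1, the divalent metal transporter of phagosomes, was well above background in every line too, at 13.64, 12.97, 12.84, 9.77 and 10.66, and 17.41, 17.53, 17.48, 17.59 and 17.77 in MQ. Of the Fc receptor and ITAM list, all 4 tested members were called higher in MQ (median 5.88). The smallest difference was that of FCER1A, the IgE receptor alpha chain, at 3.15 ± 0.37. FCER1A was well above background on 1 of 10 cancer line arrays, and its difference ran from 0.64 to 3.83 over the settings tried. S100A8, a calcium-binding protein abundant in monocytes and neutrophils, read 16.83, 16.74, 16.68, 16.77 and 16.84 in MQ and 11.89, 9.44, 10.00, 7.51 and 7.51 in the lines, with CMT-U27 the highest line.

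Genes of microbial sensing and of the oxidative burst followed. Of 6 genes of Toll-like receptors tested, 5 were called higher in MQ (median 3.66), and 4 did not overlap. TLR2, which senses bacterial lipoproteins, read 14.35, 14.19, 14.26, 14.21 and 14.32 in MQ and 9.26, 5.57, 4.91, 3.75 and 3.58 in the lines (8.85 ± 0.90, adjusted p = 2.48e-05). CMT-U27 was the highest line. TLR4, the receptor for lipopolysaccharide, read 11.06, 8.55, 7.08, 5.42 and 7.32 in the lines against 14.49, 14.41, 14.41, 14.50 and 14.43 in MQ, again with CMT-U27 the highest line and CMT-W1 the lowest. TLR1 was higher in MQ by 5.15 ± 0.70, and the endosomal receptors TLR7 and TLR9 by 2.18 ± 0.36 and 1.65 ± 0.51. TLR9 overlapped, since CMT-W1 read 9.78 against 9.30 to 9.49 in MQ; its adjusted p of 0.028 ran from 0.000108 to 0.0601 as each of the 10 values was left out, and the call was lost in 8 of those 10 fits. TLR10 was not called (1.44 ± 0.57, adjusted p = 0.0736). Of 4 tested members of the phagocyte NADPH oxidase 3 were called higher in MQ, among them CYBB and CYBA by 3.46 ± 0.34 and 2.76 ± 0.37. CYBB and CYBA, the membrane subunits, were well above background on all 10 arrays of the lines.

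Chemokines, their receptors and cytokines were split between genes high in MQ and genes that did not separate the cultures. Of 12 chemokine ligands tested 7 were called, all higher in MQ, with a median of 2.33. CCL13, a monocyte and eosinophil attractant, read 10.96, 11.20, 10.92, 11.04 and 11.16 in MQ and 4.23, 4.73, 3.83, 4.2 and 4.06 in the lines (6.85 ± 0.26, adjusted p = 3.1e-08). Only 2 of the 10 cancer line arrays had it well above background. CCL2, the main monocyte attractant, was abundant in both, 18.83, 18.35, 18.92, 18.90 and 19.22 in MQ and 15.55, 14.46, 12.90, 12.71 and 13.51 in the lines, with a difference of 5.02 ± 0.51. CCL8 and the neutrophil attractant CXCL8 behaved likewise, with differences of 5.00 ± 0.56 and 4.97 ± 0.57. Among 7 chemokine receptors 5 were called higher in MQ, among them the scavenging receptor ACKR3 (5.95 ± 0.84), CCR1 (5.91 ± 0.32) and CCR3 (3.48 ± 0.45). Of 11 cytokines 5 were called, again all higher in MQ (median 1.05). IL1B, the secreted form of interleukin 1 most studied in inflammation, read 12.52, 12.54, 12.47, 12.63 and 12.60 in MQ and 7.11, 5.6, 4.03, 4.68 and 3.71 in the lines (7.53 ± 0.57, adjusted p = 2.82e-06), and IL1A differed by 7.5 ± 0.60. IL15 and IL18 were higher in MQ by 3.27 ± 0.52 and 2.89 ± 0.55. Of the 2 cytokine receptor genes tested, IL2RA was called higher in MQ (4.45 ± 0.30). IL2RA was well above background on 1 of 10 cancer line arrays, and its difference ran from 1.39 to 5.61 over the settings tried.

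Antigen presentation and costimulation were higher in MQ as well. Of 11 presentation genes 8 were called higher in MQ (median 3.25). PSMB8, a subunit of the immunoproteasome, read 13.58, 13.56, 13.45, 13.59 and 13.51 in MQ and 7.72, 7.95, 4.98, 5.14 and 5.63 in the lines (7.25 ± 0.59, adjusted p = 5.06e-06). DLA-DRA, the class II alpha chain, read 13.16, 12.95, 12.87, 12.82 and 13.06 in MQ and 11.46, 8.33, 6.49, 7.58 and 7.64 in the lines, with CMT-U27 nearest to MQ and the other lines well below it. The class I gene DLA-64 and the class II gene DLA-DQB1 differed by 4.18 ± 0.56 and 3.79 ± 0.72. Probes for DLA genes can bind near-identical paralogs, so these levels are uncertain as to the gene. Of 7 costimulatory and checkpoint genes 6 were called higher in MQ (median 4.41). CD80 and CD86, the ligands through which a presenting cell engages T cells, differed by 8.21 ± 0.45 and 7.84 ± 0.62. CD80 was near background in the lines (6.13, 3.95, 3.85, 4.19 and 3.66, well above background on 1 of 10 arrays), so its difference rests on signals near background and ran from 3.82 to 8.66 over the settings tried, whereas CD86 was above background on 8 of 10 (10.12, 10.41, 9.48, 6.57 and 9.12). SLAMF1 and CD40 were higher in MQ by 5.28 ± 0.45 and 4.41 ± 0.56. CTLA4 differed by 2.28 ± 0.71 (adjusted p = 0.0289, 0.00253 to 0.0613 as each value was left out), with CMT-U309 at 7.5 above all MQ values.

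Lysosomal genes were nearly all higher in MQ. Of 20 lysosomal genes tested 18 were called, all of them higher in MQ, with differences from 0.26 to 8.31 over the 20 and a median of 2.87. CTSS, a cathepsin that trims class II ligands, read 16.86, 16.67, 17.06, 17.05 and 16.92 in MQ and 10.93, 9.34, 7.84, 7.31 and 7.59 in the lines (8.31 ± 0.62, adjusted p = 2.72e-06). CTSK and CTSC, proteases of matrix and of granule enzymes, differed by 6.68 ± 0.55 and 6.04 ± 1.01, and PPT1, which removes palmitate from proteins, by 4.86 ± 0.57. CTSC showed a step between lines, 10.16 to 11.02 in CMT-U27, CMT-U309 and P114 and 5.41 to 6.72 in CMT-W1 and CMT-W2. Of 6 iron genes 4 were called higher in MQ. The ferritin chains FTH1 and FTL differed by 3.30 ± 0.63 and 2.82 ± 0.42, and HMOX1, which degrades haem, by 3.81 ± 0.92. HAMP, the hormone hepcidin, was higher in the lines, 9.75, 10.03, 10.40, 10.08 and 10.66 against 8.33, 8.25, 8.36, 7.94 and 8.62 in MQ (difference -1.88 ± 0.28, adjusted p = 0.000391). Of 5 prostaglandin and eicosanoid genes 4 were called higher in MQ. PTGS2, the inducible cyclooxygenase, read 15.80, 15.46, 15.16, 15.93 and 15.79 in MQ and 7.19, 12.32, 12.09, 5.52 and 10.04 in the lines, which alone spanned from 5.52 to 12.32. PLA2G7, PTGES and the receptor PTGER4 differed by 5.44 ± 0.92, 4.51 ± 0.58 and 3.25 ± 0.37, while PTGES2 was not called (-1.31 ± 0.77).

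All 5 interferon-stimulated genes tested lay without overlap above the lines in MQ, and 4 of them were called (median 4.0). MX1, an antiviral GTPase, read 14.09, 14.17, 14.19, 14.22 and 14.09 in MQ and 10.21, 8.28, 7.86, 7.33 and 7.05 in the lines (6.0 ± 0.52, adjusted p = 8.41e-06). OAS1 and OAS3, enzymes that activate RNase L, differed by 4.77 ± 0.80 and 2.49 ± 0.63. OAS2 read 16.30, 16.34, 16.04, 16.55 and 16.24 in MQ and 11.43, 15.28, 15.53, 7.18 and 12.05 in the lines. CMT-U309 and P114 lay just below the lowest MQ value and CMT-W1 far below it, and the adjusted p of 0.0355 ran from 0.014 to 0.0703 as each value was left out. EIF2AK2 differed by 2.27 ± 0.83 (adjusted p = 0.0551). CMT-W1 was again the lowest line for EIF2AK2 (3.71), and P114 the highest (8.89).

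**Figure D3:**
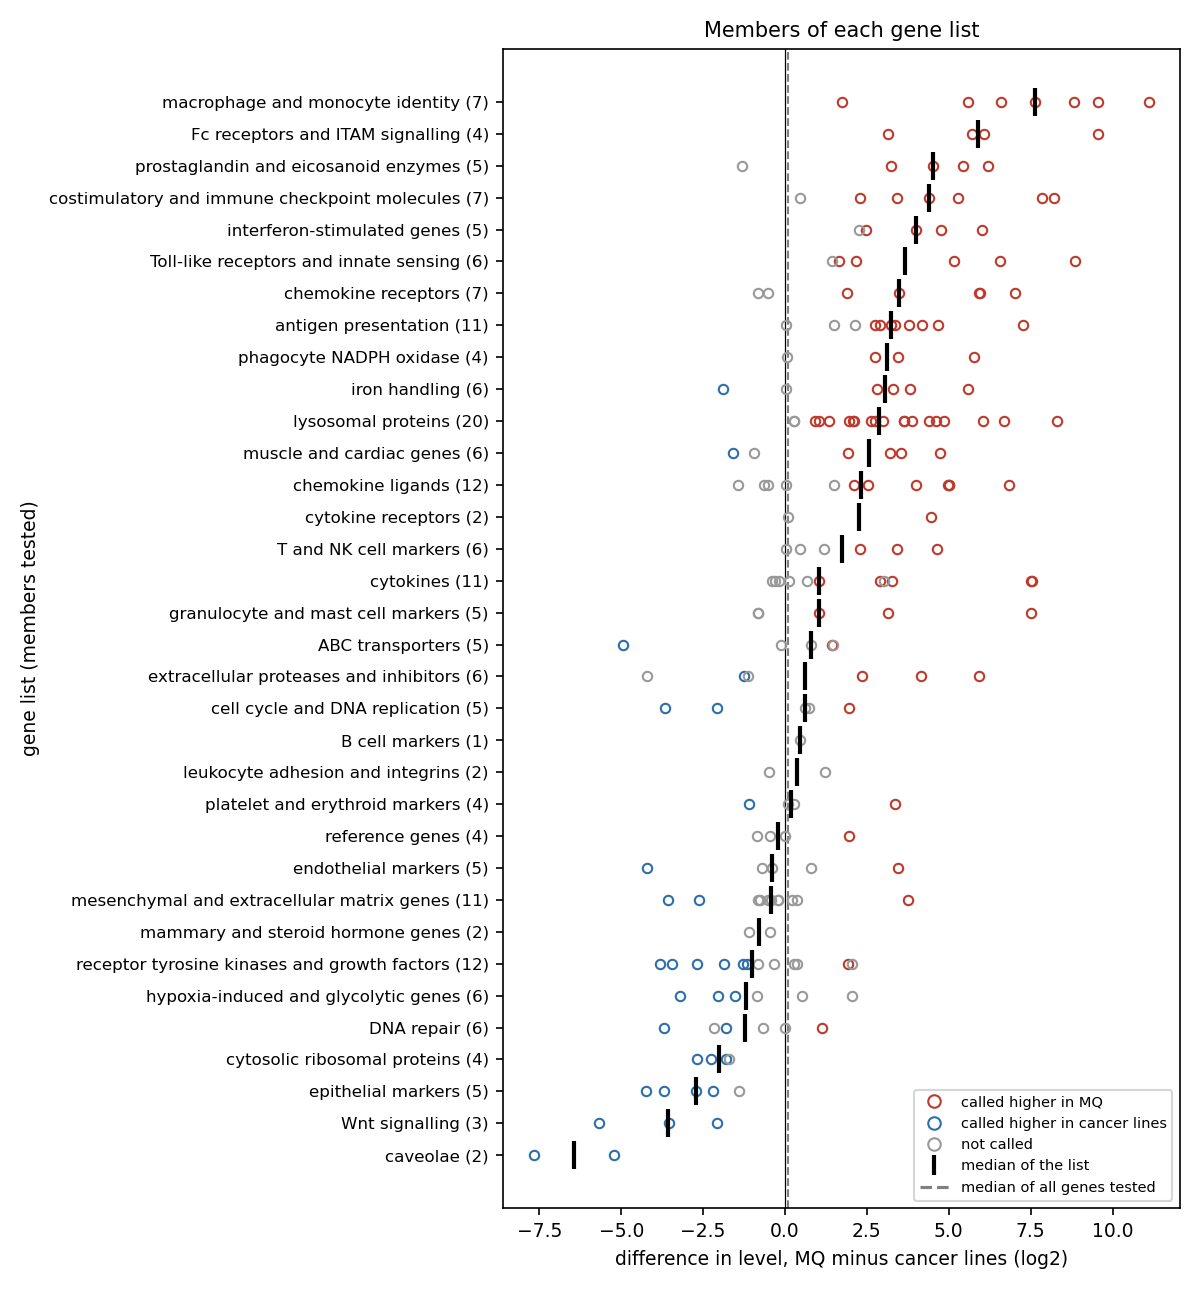
Difference in level (MQ minus cancer lines, log2) of every tested member of each gene list, with the number tested in brackets; red and blue circles are genes called higher in MQ or in the cancer lines, grey circles were not called, black bars are list medians and the dashed line is the median of all genes tested, 0.0977. Immune lists lie to the right, with medians up to 7.64, and caveolae, Wnt and epithelial lists to the left.

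On the side of the cancer cells, the largest fitted differences of reported genes were those of CAV1 and MYC. Both tested caveolar genes were called higher in the lines. CAV2, the partner of CAV1, read 11.00, 13.49, 14.27, 8.72 and 12.69 in the lines and 6.68, 6.98, 7.26, 6.69 and 6.41 in MQ (-5.23 ± 0.87, adjusted p = 0.0009). MYC, a transcription factor that drives growth and division, read 12.26, 13.42, 13.42, 14.23 and 12.64 in the lines and 7.31, 7.29, 8.22, 7.44 and 7.36 in MQ (-5.67 ± 0.40, adjusted p = 1.82e-06). Every line lay above every MQ value, the closest being CMT-U27 at 12.26 and the MQ value of the P114 pair at 8.22. The other members of the Wnt list, beta-catenin (CTNNB1) and the receptor FZD6, differed by -2.07 ± 0.27 and -3.56 ± 1.22. FZD6 was absent from the high group in CMT-W1 (4.70), overlapped with MQ, and its adjusted p of 0.0434 ran from 0.000236 to 0.0967 as each value was left out.

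Some genes of the lines were not well above background on any MQ array, so only a bound of the fold can be given: the mean of the lines over the mean, per MQ array, of the higher of the probe's own signal and the lowest signal of any probe well above background. ABCC5, a drug and nucleotide exporter, ranged from 7.68 in CMT-U27 to 11.22 in CMT-W1 and was at least 16.4-fold higher in the lines. RHPN2 was at least 21-fold higher, with 7.07 and 8.02 in CMT-W1 and CMT-W2 and 11.01 to 12.20 in the other lines. CES1, a carboxylesterase, was at least 15.9-fold higher and ranged from 7.06 in CMT-U309 to 14.14 in CMT-U27. ASPM, a spindle protein of dividing cells, was at least 7.68-fold higher (10.36, 6.33, 7.33, 8.27 and 10.91 in the lines). These bounds hold for the main processing only. Over the settings tried, fitted differences ran from -5.97 to -1.69 for ABCC5 and from -5.87 to -1.98 for RHPN2. For CES1 the range was -6.65 to -1.92, and for ASPM -4.25 to -1.13. Genes given with a bound were tested through the lines alone, so their calls set the lines against MQ signals near background. SLC1A1, a glutamate transporter, and DZIP1, a ciliary protein, were well above background on 1 of 10 MQ arrays, so their fitted differences of -5.50 ± 1.09 and -4.77 ± 0.61 rest on MQ signals near background. Over the settings tried they ran from -6.40 to -2.04 and from -5.65 to -1.47. UACA, a protein with ankyrin repeats, was above background on every array and differed by -4.56 ± 0.41. The calls of CES1, ASPM and SLC1A1 were lost with normexp and loess, and that of RHPN2 with Aquantile normalization.

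Of 5 epithelial genes tested 4 were called higher in the lines (median -2.72, or -2.31 with the bounded gene at its bound) and none was called higher in MQ. The tight junction genes TJP1 and CLDN3 differed by -2.72 ± 0.35 and -2.21 ± 0.39. DSG3, a desmosomal cadherin, read 10.31, 9.75, 10.79, 5.64 and 3.46 in the lines and was well above background on none of the MQ arrays. In the main processing it was at least 4.94-fold higher in the lines, and its fitted difference ran from -5.38 to -1.46 over the settings tried. DSG3 was high in CMT-U27, CMT-U309 and P114 and low in CMT-W1 and CMT-W2, where CMT-W2 fell inside the MQ range. Its call sets the lines against MQ signals near background. The adjusted p reached 0.052 as each value was left out, and the call was lost in 3 of 7 such fits. MUC1 was not called (-1.40 ± 0.85). In the mesenchymal and matrix list 8 of 11 genes were not called, with a median of -0.42 for the brightest probe of each gene. Other probes of these genes differed from it: the 5 others of COL1A2 ran from -5.52 to -1.45 (used probe -0.51), the 2 others of SERPINH1 were at -6.28 and -0.75 (0.20), and the lowest of COL1A1 was at -2.66 (-0.42), so the count depends on the probe. SNAI2, a repressor of epithelial genes, and the proteoglycan BGN were called higher in the lines (-3.58 ± 0.90 and -2.62 ± 0.69), both with CMT-U27 inside the MQ range. PDPN, podoplanin, was called higher in MQ at 3.74 ± 1.31, but CMT-U309 and P114 reached 13.29 and 13.41 against 13.50 to 13.90 in MQ, and the adjusted p of 0.0471 ran from 0.0142 to 0.111 as each value was left out.

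Among 12 receptor tyrosine kinases and growth factors 6 were called higher in the lines and 1 in MQ (median -1.00). MET, the receptor for hepatocyte growth factor, read 11.60, 10.56, 11.13, 9.90 and 10.36 in the lines and 6.67, 7.01, 7.25, 6.57 and 6.90 in MQ (-3.83 ± 0.35, adjusted p = 1.26e-05). HGF, its ligand, was the member called higher in MQ (1.93 ± 0.55, adjusted p = 0.0185), at 6.71, 6.83, 6.58, 7.0 and 6.80 there and 3.77, 4.37, 4.04, 7.03 and 5.05 in the lines, CMT-W1 lying above all MQ values, and the call was lost with normexp and loess, with scaling to the 75th percentile, with the single culture in Cy5 only and with slide as a random block. PDGFA and KITLG were higher in the lines by fitted differences of -3.45 ± 0.49 and -2.69 ± 0.56, and the KITLG call was lost with the single culture in Cy3 only. VEGFA was abundant in both and not called (2.06 ± 0.92, adjusted p = 0.106), with CMT-U27, CMT-U309 and P114 at 15.66 to 16.65 against 16.16 to 16.58 in MQ.

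Genes of division and repair did not all separate dividing lines from MQ. CCND1, cyclin D1, was higher in the lines, 14.17, 14.00, 14.07, 13.65 and 13.89 against 11.64, 11.64, 11.94, 12.32 and 11.80 (-2.08 ± 0.26), and CDKN1B, an inhibitor of cyclin-dependent kinases, was higher in MQ (1.95 ± 0.31). The remaining 2 of 5 tested members of the list were not called. Of 6 DNA repair genes 2 were called higher in the lines and 1 in MQ. That is too few genes to set apart from the 33.9% called over all genes or the 308 of 723 named genes. BRCA2, which acts in homologous recombination, was higher in the lines (MQ minus lines -1.79 ± 0.45), a call that was lost with normexp and loess and with the single culture in Cy3 only. MDM2, the ubiquitin ligase of p53, was higher in MQ by 1.14 ± 0.31, a call that was lost with the line as a replicate block. BRCA1 was not called (-2.18 ± 0.89). It was high in CMT-U27, CMT-W1 and CMT-W2 (7.76, 9.58 and 7.85) and at 4.31 and 4.63 in CMT-U309 and P114, inside the MQ range of 4.24 to 4.91.

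Of 4 ribosomal protein genes 3 were called higher in the lines (median -2.03). RPS18 and RPL23 differed by -2.68 ± 0.64 and -1.79 ± 0.40, and RPL27 missed the threshold (-1.71 ± 0.61). In these 3 genes CMT-W1 and CMT-W2 were the highest lines, at 17.14 to 19.77. Of 6 hypoxia and glycolysis genes 3 were called higher in the lines, CA9 (-3.20 ± 0.81), ADM (-2.04 ± 0.53) and the glucose transporter SLC2A1 (-1.53 ± 0.51, adjusted p 0.00333 to 0.0814 as each value was left out). Of the extracellular proteases and inhibitors, ANPEP, MMP9 and TIMP2 were higher in MQ by 5.92 ± 0.40, 4.15 ± 0.82 and 2.34 ± 0.41, and TIMP1 was higher in the lines (-1.25 ± 0.30). MMP9, a gelatinase, was well above background in all cultures and in the lines ranged from 16.07 in CMT-U27 to 10.64 in CMT-W1. ABCC1 was higher in MQ (1.45 ± 0.35), and 3 of 5 ABC transporters were not called. Of the 4 reference genes 1 was called, GUSB, higher in MQ by 1.97 ± 0.45.

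Markers of other cell types gave no single pattern. In the T and NK cell list 3 of 6 tested genes were called higher in MQ, KLRD1 (4.66 ± 0.27), CD28 (3.43 ± 0.28) and CTLA4, while CD8A and the other 2 were not called; another CD8A probe differed by 3.24. KLRD1 and CD28 were above background on all 10 MQ arrays at low levels (8.56 to 9.0 and 7.65 to 8.08). CD28 was well above background on 1 of 10 cancer line arrays. Over the settings tried the differences ran from 1.16 to 5.08 for KLRD1 and from 0.60 to 3.56 for CD28. The only tested gene of the B cell list, CD40LG, is better known from activated T cells, and it was not called. The B cell gene MS4A1 missed the filter and was not tested. It was well above background on 7 of 10 MQ arrays and 0 of 10 cancer line arrays, at mean levels of 6.21 and 3.89. Of 5 granulocyte and mast cell genes S100A8, FCER1A and CAMP were called higher in MQ. CAMP differed by only 1.04 ± 0.37 and its adjusted p of 0.0479 ran from 0.00682 to 0.102 as each value was left out. EPOR was called higher in the lines at -1.10 ± 0.39 (adjusted p = 0.0498, 0.0326 to 0.124 as each value was left out). Of 5 endothelial genes, EDNRB was higher in MQ (3.45 ± 0.75) and EDN1, endothelin 1, was higher in the lines (-4.2 ± 0.67). Among muscle genes MYH7, MYL2, TNNT2 and PLN were called higher in MQ (MYH7 by 4.74 ± 0.51) and TNNI3 in the lines (-1.57 ± 0.46, adjusted p 0.00412 to 0.0526 as each value was left out). A further MYL2 probe differed by -1.85, against 3.53 for the probe used. In cultures of this kind more cells of another type and more RNA per cell cannot be told apart, and the part of other blood cells in the MQ levels was not tested. Before culture, monocytes had been gated by scatter and sorted on CD64.

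The genes that the study listed as changed by co-culture sorted by cell type in the single cultures. The study chose them on these arrays, and their ratios share the single-culture channels used here, so the counts are a description. Of 38 tested genes that it listed as raised in co-cultured cancer cells, 37 were called higher in MQ than in lines grown alone, with a median of 5.36. Over all genes 18.8% were called higher in MQ, and of the named genes 206 of 723. CSF2 was the exception. Of 18 tested genes listed as raised in co-cultured macrophages, 14 were called higher in the lines and none in MQ (median -3.12, or -2.81 with genes not well above background in MQ at their bound). All 21 tested genes listed as lowered in co-cultured macrophages were called higher in MQ (median 5.91).

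Genes with the largest SD over the lines came from several lists. HSD11B1, which regenerates active glucocorticoid, read 3.71, 10.99, 12.38, 3.46 and 3.47 in the lines, high in CMT-U309 and P114 and low in the other 3, with MQ between (7.18, 6.86, 7.87, 6.84 and 7.12). HSP70, a heat shock chaperone, read 14.60, 18.86, 18.84, 10.58 and 12.29, and its call against MQ (-4.05 ± 1.44, adjusted p = 0.0497) was lost in 8 of 10 fits that left out a value. GAD2, which makes the transmitter GABA, reached 11.19 and 10.68 in CMT-U309 and P114, 7.45 in CMT-W2 and 3.55 to 3.70 in the other lines. ABCB1, the drug efflux pump P-glycoprotein, read 8.01, 11.35, 12.15, 3.91 and 11.15, lowest in CMT-W1 and highest in P114. RPE65 read 17.88, 17.70, 17.50, 9.30 and 14.56, with MQ at 17.88, 17.61, 17.74, 17.77 and 17.68. PDPN and OAS2, described above, were of this kind too. CMT-W1 was the lowest line for HSP70, RPE65, ABCB1, PDPN and OAS2. The lowest lines for HSD11B1 (CMT-U27, CMT-W1 and CMT-W2) and GAD2 (CMT-U27 and CMT-W1) were not well above background and have no order.

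Macrophage genes did not sit at 1 level in the lines. Of 14 genes among those with the largest non-overlapping differences towards MQ, CMT-U27 was the highest line in 9, CMT-U309 in 4 and CMT-W2 in 1. Over all 2565 genes called at least 4-fold higher in MQ, CMT-U27 was the highest line in 1027, P114 in 531, CMT-W1 in 486, CMT-U309 in 377 and CMT-W2 in 144. The median distance of CMT-U27 from MQ over these genes was -2.63, that of CMT-W1 -4.17. These genes were chosen by the mean over all lines, so the order among lines is a description. TYROBP at 14.12, DLA-DQB1 at 13.34 and TLR4 at 11.06 in CMT-U27 were all well above the other lines except CMT-U309 for TYROBP. Whether those levels come from CMT-U27 cells was not tested.

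**Figure D4:**
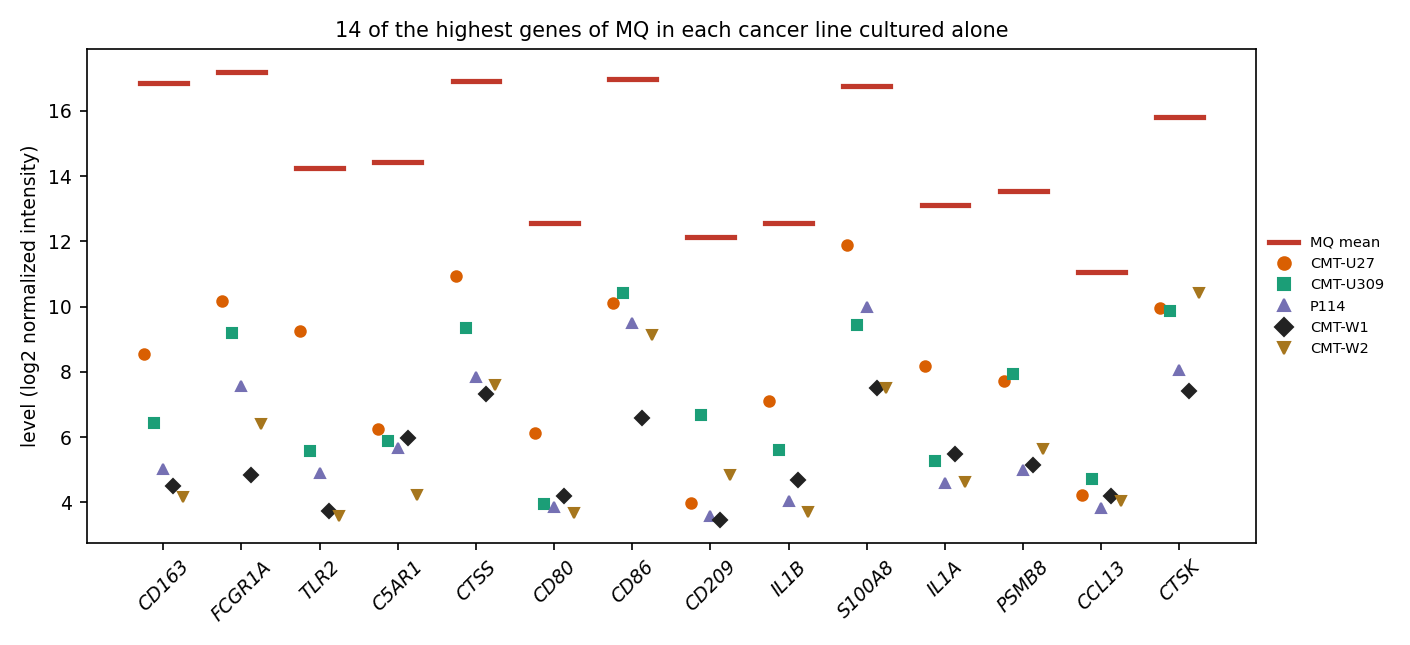
Level (log2 normalized intensity) in each cancer line grown alone (symbols) of 14 genes among those with the largest non-overlapping difference towards MQ, beside the MQ mean (red bar, n = 5). CMT-U27 is the highest line for 9 of the 14 genes, and CMT-W1 and CMT-W2 are mostly near the floor.

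A few genes did vary between MQ values, and some of them had the order of the lines named on the other channel. CSF2, the growth factor GM-CSF, read 8.19, 7.56, 10.81, 12.36 and 10.65 in MQ and 5.91, 7.57, 11.94, 13.54 and 12.21 in the lines. The CMT-W1 pair was highest and the CMT-U309 and CMT-U27 pairs lowest in both series. CCL24, an eosinophil attractant, read 4.37, 4.58, 9.11, 5.58 and 4.23 in MQ, above background on both arrays of the P114 pair, and P114 was also the highest line (9.49). PLAU, the urokinase activator, behaved likewise, 11.98 in the MQ value of the P114 pair against 9.45 to 9.84 in the others. SLC5A2 was high in the CMT-W1 pair (12.87), but that rested on 1 of its arrays, at 16.66 against 9.07 on the dye-swapped array.

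Over the 401 genes with an SD above 1 between MQ values, the highest MQ value was that of the line in which the gene was highest in 209. For the P114 pair this held in 85 of 125 genes, for the CMT-W1 pair in 95 of 143 and for the CMT-U309 pair in 15 of 100. The same count over all genes is not given here. The 2 MQ arrays of the CMT-W1 pair were 4-fold or more apart in 658 genes (2.79%), against 30 to 72 genes in the other MQ pairs. Some of its 143 genes may therefore rest on 1 array. Deviations from the group means correlated between an MQ value and the line of the same name at 0.22 to 0.75 over these genes, against -0.53 to 0.62 for lines of another name. Over all genes tested these ranges were 0.06 to 0.25 and -0.23 to 0.21. On the same arrays the co-culture channel read CAV1 5.02 to 6.79 (log2) above the single-culture channel in every pair, and CSF2 2.98 to 6.31 above it. For CCL24 the co-culture minus single-culture difference was 5.67 in the P114 pair and -0.56 to 0.79 in the others. For SLC5A2 it was negative in every pair, from -3.6 in the CMT-W1 pair to -0.33 in the P114 pair. The part of the other channel of the array in the MQ values, and of cancer cells in those cultures, was not tested.

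**Figure D5:**
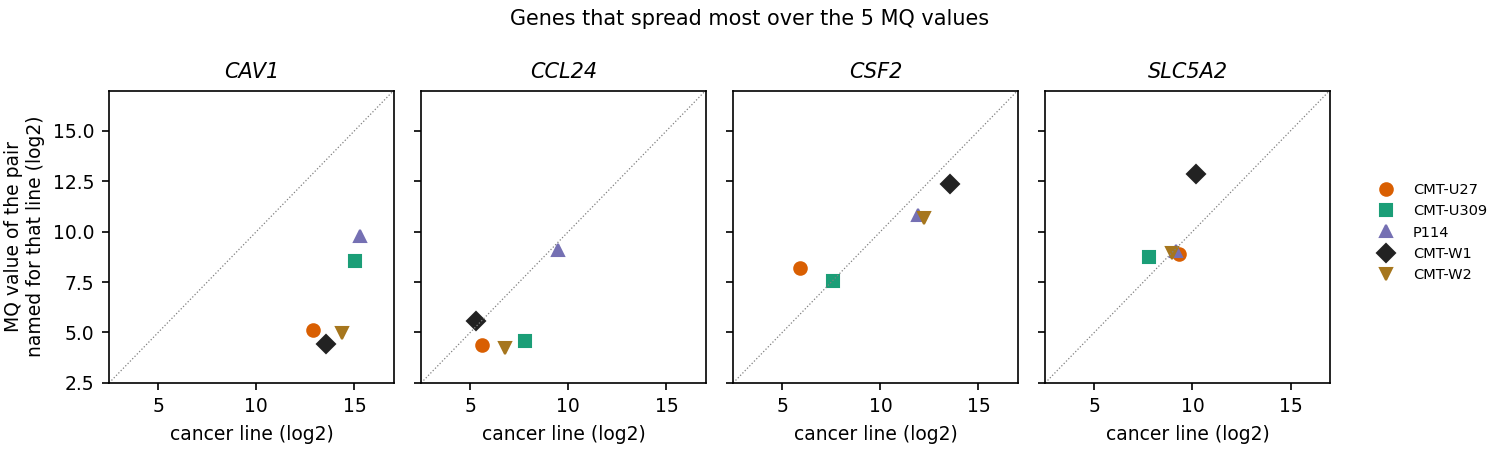
MQ level (vertical, log2) against the level in the cancer line of the same name (horizontal, log2) for 4 genes among those with the largest SD over the MQ values; each point is a dye-swapped pair and the dotted line marks equal levels. CSF2 follows the diagonal, CAV1 and CCL24 are raised in the P114 pair, and SLC5A2 is raised in the CMT-W1 pair.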

How the data were processed

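Single-culture RNA of MQ and cancer lines was measured on 20 dye-swapped two-colour Agilent arrays. Per the file headers, the authors' Feature Extraction software (10.7.3.1) made the deposited processed intensity of each channel, which is background-subtracted and dye-normalized within the array against the co-culture channel, so a level can carry some influence of that channel. The processed intensity of the single-culture channel was taken as log2, control probes and outlier spots were left out, arrays were quantile-normalized, and the 2 arrays of each dye-swap were averaged. Each gene was represented by 1 probe, the brightest on average. To be tested, a gene had to stand well above background in 3 or more of the 5 pairs of MQ or of the cancer lines, with both dye-swapped arrays of a pair passing. MQ and cancer lines were compared with limma 3.58.1 in R 4.3.3 (lmFit and eBayes, Benjamini-Hochberg over 23625 genes, called at an adjusted p under 0.05). SE and SD are on the log2 scale. The scripts were tested on simulated data.

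The deposited log10 ratio columns and value tables of co-culture over single culture were not used. The normexp alternative used the median spot intensity, since no mean signal column is in the files used. Gene symbols came from a RefSeq table (assembly UU_Cfam_GSD_1.0), which named 1648 of 43603 probes, 1045 symbols in all, of which 723 were tested. Named are the 5 markers, the 15 highest and 10 lowest non-overlapping called differences, the 4 largest called members of each list and 2 opposed to its median, all members of lists with 6 or fewer tested, and the genes with the largest SD over lines (8) or MQ (5). Of these 152 genes, 31 that were not called and differed by under 1 (log2), or entered for spread only, are given without a difference. Some genes that the rule names are not reported here, though list counts and medians include them. The members and lists were chosen with earlier results of these data known.

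Cancer lines and MQ lay largely on different slides: 2 slides held cancer lines only, 2 held MQ only and 1 held both. Alternatives covered background correction, scaling, filters, dye, slide, scan day, the line as a block, an intensity trend, the methods' t-test, MQ as 1 sample and leaving out each value. No spot was saturated (0 on every array), and the number of arrays limits the precision.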

Additional observations from a re-analysis of the deposited data

Results flagged for a closer look

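In 25 of 242 groups of 5 values, over 121 named genes, 1 value stood far from the other 4, its gap to the nearest being more than 0.71 of the group's whole range. Chance alone would mark about 1 group in 20. Of the 25, 15 were in MQ and 10 in the cancer lines. Values are on the log2 scale of normalized intensity, and the cause was not tested. Some of the flagged values lay near background, where their order has little meaning. These include DSG3 and SLC1A1 in MQ, CD80 in the lines and FCER1G in P114.

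Among MQ values that were high, DSG3 in the MQ value of the CMT-U27 pair read 4.658 against 3.772 in the nearest value. EDN1 in the MQ value of the CMT-U27 pair read 5.932 against 4.328 in the nearest value. FTH1 in the MQ value of the CMT-W2 pair read 20.95 against 20.36 in the nearest value. KITLG in the MQ value of the CMT-U309 pair read 5.798 against 4.252 in the nearest value. MYC in the MQ value of the P114 pair read 8.224 against 7.442 in the nearest value. PDPN in the MQ value of the CMT-U27 pair read 13.9 against 13.55 in the nearest value. PLAU in the MQ value of the P114 pair read 11.98 against 9.838 in the nearest value. PRF1 in the MQ value of the CMT-W1 pair read 10.56 against 8.214 in the nearest value. SLC1A1 in the MQ value of the CMT-U27 pair read 5.347 against 3.923 in the nearest value. CCL24 in the MQ value of the P114 pair read 9.11 against 5.583 in the nearest value. SLC5A2 in the MQ value of the CMT-W1 pair read 12.87 against 9.023 in the nearest value. Among MQ values that were low, CAMP in the MQ value of the CMT-W1 pair read 8.734 against 9.112 in the nearest value. CCL8 in the MQ value of the CMT-U309 pair read 16.74 against 17.03 in the nearest value. PTGES2 in the MQ value of the CMT-W1 pair read 4.451 against 5.629 in the nearest value. TLR9 in the MQ value of the CMT-U309 pair read 9.301 against 9.445 in the nearest value.

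Among cancer lines that were high, CD80 in CMT-U27 read 6.135 against 4.191 in the nearest value. EPOR in CMT-W1 read 9.033 against 7.655 in the nearest value. IL1A in CMT-U27 read 8.186 against 5.471 in the nearest value. TIMP2 in CMT-W1 read 12.8 against 10.95 in the nearest value. Among cancer lines that were low, C5AR1 in CMT-W2 read 4.229 against 5.662 in the nearest value. CD40 in CMT-W2 read 5.553 against 8.368 in the nearest value. FCER1G in P114 read 5.047 against 7.254 in the nearest value. FZD6 in CMT-W1 read 4.704 against 9.912 in the nearest value. PLA2G7 in CMT-W1 read 7.767 against 12.59 in the nearest value. TJP1 in CMT-U27 read 11.38 against 12.85 in the nearest value.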

How the results depend on the processing

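The 8003 calls became 3769 among the 11968 genes well above background in all pairs (1512 higher in MQ, 2257 higher in the lines, 1284 at 4-fold or more), 4717 at an adjusted p under 0.01, and 143 with MQ as 1 sample (116 higher in MQ, 27 higher in the lines, 143 at 4-fold or more). With scan day as a block, an alternative chosen after seeing the data, 1746 were called (1171 higher in MQ, 575 higher in the lines, 1725 at 4-fold or more). Only the MQ value of the CMT-U27 pair enters the difference in that fit. The count at 4-fold or more was 1576 with normexp and loess and 7836 with slide as a fixed block. Leaving out each value in turn gave 6121 to 10971 calls, with 3431 to 6104 higher in MQ, 2690 to 4867 higher in the lines and 3966 to 4681 at 4-fold or more. The highest of the first 3 ranges came without CMT-W1 and the lowest without the MQ value of the CMT-U27 pair. The share of calls higher in MQ was 55.5%, and 40.1%, 81.1% and 67.1% for genes above background in all pairs, MQ as 1 sample and scan day. The median difference over all genes was 0.0977, -0.0215 with scaling to the 75th percentile and 0.151 with median scaling. The methods' t-test gave 6492 genes at an unadjusted p under 0.01 and 7331 at a Benjamini-Hochberg adjusted p under 0.05.

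The line as a replicate block gave 7439 calls. Deviations of an MQ value and the line of its name correlated at 0.06 to 0.25, above 0.1 in 4 of 5 pairs, and at 0.22 to 0.75 over the 401 genes that spread most between MQ values, so a link between them is possible but was not taken as a pairing. The block ended the calls of MDM2, CAMP, EPOR and SLC2A1 and of no other named and reported gene. Of the 102 called and reported genes of the naming rule, 6 kept their call with MQ as 1 sample, 51 with scan day as a block, and 11 lost it as at least 1 value was left out. Merging CMT-U309 with P114 gave 8262 calls and dropping the 2 arrays that stood apart 8507, both chosen after seeing the data.

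With slide as a fixed block, a contrast set by 1 slide with MQ of the CMT-U27 pair and CMT-W1, the difference turned to 1.09 for FZD6, -0.32 for HGF, 0.64 for HSP70, 0.91 for PGR, -0.48 for PRF1, 1.5 for PTGES2 and -0.29 for TLR9. By construction these are the differences within that slide, so the slide gives no separate check. The cause was not tested.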
